A study of Mus musculus with 52 samples.

Results

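The 51 genes described here encode the DNA synthesis, repair and chromatin assembly machinery of replicating cells, and were followed in mouse liver after partial hepatectomy. They comprise enzymes of nucleotide supply, origin-firing factors, primase and polymerase subunits, the sliding clamp with its loader, single-strand binding and lagging-strand proteins, fork protection and repair proteins, chromatin assembly factors and E2F transcription factors. Each gene was read by the probe set that is annotated to that gene alone and has the highest mean over all arrays. All 51 listed genes were measured in this way, of 18194 genes with such a probe set. The probe set of each gene was picked by mean level, and the gene list was drawn up with earlier results of these data known.

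Before a cell divides, its genome is copied once, during S phase. The kinase Cdc7 with its activator Dbf4 fires origins, Cdc45 and the GINS complex switch on the loaded helicase, and primase and the replicative polymerases make DNA. The ring-shaped clamp Pcna, opened by the Rfc loader, holds polymerases on their template, and E2F factors turn on many of these genes as cells pass into S phase. Hepatocytes of an adult liver rarely divide, but most re-enter the cell cycle when much of the organ is removed.

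RNA from whole liver was hybridized to 52 arrays, 1 per sample. The animals were male C57Bl6/N mice of 8 to 12 weeks on a standard diet. Untreated controls gave 5 arrays. On the first day after the operation, 3 arrays come from 1 hour, 4 each from 6 and 12 hours and 11 from 24 hours. The 48-hour, 3-day, 4-day, 1-week and 4-week groups have 4 arrays each, the 2-week group 2 and the 3-month group 3. Sham-operated livers were not analysed here, so effects of the operation, of the lost tissue and of the time of day cannot be told apart. Whether each array is a different animal is not stated in the labels, and the p-values measure only the spread between these samples. Levels are on the log2 scale, and changes are log2 differences ± SE. Calls are those of limma, a linear model fitted to all arrays, with Benjamini-Hochberg adjustment over the 18194 genes and a threshold of 0.05. A group mean under 4.04, the level of the middle probe set of untreated liver, was taken as background, and a fold against such a group is given as at least the fold over that median. In whole-liver RNA, more cells with a transcript and more transcript per cell cannot be told apart.

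Promoter sequences of the genes were examined for the words that E2F factors are known to bind, because most of the genes moved together. RefSeq promoter windows of the GRCm38.p6 assembly, each from 250 bases before to 50 bases after a transcription start, were found for 42 of the 51 genes. The words searched on both strands were TTTGGCGC, TTTCCCGC, TTTCGCGC and TTTGCCGC. At least 1 of them stood in a promoter of 14 of the 42 genes (33.3%), against 704 of all 27025 genes with promoter windows (2.6%). CCAAT, the word of the factor NF-Y, was held by 24 of the 42 genes (57.1%), against 41.1% of all genes. The CHR words TTTGAA and TTCGAA, known from genes of late cell cycle phases, were held by 10 of the 42 genes (23.8%), against 21.7% of all genes. Orc1 and Clspn also hold a word, and neither was called higher at any time on its probe set with the highest mean. A match describes these letters and does not show a bound site.

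The windows below are shown because they hold E2F words in genes called higher at 48 hours, beside that of Rrm2, the gene with the largest change at 48 hours, whose window held none of the 4 words. Capitals mark the words, read 5′ to 3′ in the direction of the gene, so that GCGCGAAA, GCGCCAAA and GCGGGAAA are words on the opposite strand. The Uhrf1 window lies at chr17:56304063-56304362 on the plus strand with its word 185 bases before the start, and that of Lig1 at chr7:13278576-13278875 on the plus strand with its word 27 bases after the start. Both genes have other annotated starts without a word. The Pola1 window lies at chrX:93632106-93632405 on the minus strand, with the word 138 bases before the start. The Rfc3 window lies at chr5:151651159-151651458 on the minus strand, with words 10 bases before and 1 base after the start. The Pole2 window lies at chr12:69228141-69228440 on the minus strand, with the word 11 bases after the start, and the Rrm2 window lies at chr12:24708004-24708303 on the plus strand.
Uhrf1: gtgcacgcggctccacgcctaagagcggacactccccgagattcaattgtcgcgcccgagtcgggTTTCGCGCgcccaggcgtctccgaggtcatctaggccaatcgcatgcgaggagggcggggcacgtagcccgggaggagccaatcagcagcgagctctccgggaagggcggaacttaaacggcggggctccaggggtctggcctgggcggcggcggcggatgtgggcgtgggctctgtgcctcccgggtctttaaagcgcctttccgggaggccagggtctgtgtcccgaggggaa
Lig1: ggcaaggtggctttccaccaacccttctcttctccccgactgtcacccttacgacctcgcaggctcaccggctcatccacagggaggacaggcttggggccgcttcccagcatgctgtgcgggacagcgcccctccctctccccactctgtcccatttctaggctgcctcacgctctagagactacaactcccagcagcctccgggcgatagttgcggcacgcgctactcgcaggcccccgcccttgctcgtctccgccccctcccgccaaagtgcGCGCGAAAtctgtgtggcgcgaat
Pola1: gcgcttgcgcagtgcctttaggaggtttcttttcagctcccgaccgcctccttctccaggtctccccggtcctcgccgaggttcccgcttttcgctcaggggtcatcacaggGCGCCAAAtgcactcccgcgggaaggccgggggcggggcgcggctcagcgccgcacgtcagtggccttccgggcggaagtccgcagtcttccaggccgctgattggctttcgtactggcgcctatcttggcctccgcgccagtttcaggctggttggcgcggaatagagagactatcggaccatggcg
Rfc3: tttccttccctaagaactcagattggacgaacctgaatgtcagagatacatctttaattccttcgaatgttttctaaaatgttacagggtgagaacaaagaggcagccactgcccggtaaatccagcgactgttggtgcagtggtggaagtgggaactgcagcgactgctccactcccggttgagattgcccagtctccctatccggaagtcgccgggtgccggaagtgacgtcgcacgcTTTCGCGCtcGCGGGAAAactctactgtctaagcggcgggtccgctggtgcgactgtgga
Pole2: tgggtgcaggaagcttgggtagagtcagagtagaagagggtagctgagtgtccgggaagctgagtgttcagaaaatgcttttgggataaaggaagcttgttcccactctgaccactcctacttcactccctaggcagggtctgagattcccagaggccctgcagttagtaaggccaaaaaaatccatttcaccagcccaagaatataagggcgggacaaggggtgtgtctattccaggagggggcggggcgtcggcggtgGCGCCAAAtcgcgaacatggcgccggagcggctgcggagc
Rrm2: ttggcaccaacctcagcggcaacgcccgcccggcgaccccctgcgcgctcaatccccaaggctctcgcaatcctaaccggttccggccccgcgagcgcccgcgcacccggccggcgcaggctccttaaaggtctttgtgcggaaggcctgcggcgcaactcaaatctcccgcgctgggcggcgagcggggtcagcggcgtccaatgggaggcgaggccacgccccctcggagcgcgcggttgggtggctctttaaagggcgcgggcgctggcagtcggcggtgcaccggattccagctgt

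Some arrays stood apart from their groups. The sum of the 5 hepatocyte markers lay between 15.63 and 15.89 on all 52 arrays (log2). Xist, a transcript of female cells, read 9.15, 9.48 and 9.12 on 24-hour replicates 9, 10 and 11, against 2.51 to 3.81 on the other arrays, although all samples are labelled male. Replicate 1 of the 4-week group followed the 12-hour group (r = 0.94 over the 2000 most variable genes) rather than its own (r = -0.50), and 24-hour replicates 2 and 5 were closest to the 48-hour group. All 1-week arrays were closest to another group (r with their own 0.17, 0.17, 0.29 and -0.28), as were the other 4-week arrays. The same held for 24-hour replicate 1, 48-hour replicate 4, 3-day replicates 2 and 3 and 4-day replicates 1, 2 and 4. The hybridization controls, which are spiked into every sample, read 10.85 ± 0.29 on control arrays (SD, n = 5), with group means of 9.73 to 10.38 after the operation. Counts from a fit with this reading as a covariate are given where they differ most. The Gapdh 3′ to 5′ difference was also highest in controls, at 1.61 ± 0.57 (SD, n = 5), with group means of 0.65 to 1.10 after the operation. Counts with the Gapdh difference as a covariate are given further below.

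At 48 hours, 43 of the 51 genes were higher than in controls and none were lower, with a median change over the 51 of 1.67 against -0.04 over all genes. With group means under background set to that level, which holds for 11 of the 51 genes in controls, the median was 1.59. The ribonucleotide reductase subunit Rrm2 gained 4.77, and the repair factor Rad51ap1 was called higher with both group means under background, so it carries no fold. At 1 hour 1 gene was higher, against 3.67% of all genes, at 6 hours 4, against 11.4%, and at 12 hours 9, against 17.9%, so that the shares were near or under that of all genes. The count reached 21 in 24-hour livers, against 18.9% of all genes. The 43 at 48 hours stand against 17.4%. There were 34 in 3-day livers, against 21.7%, 20 in 4-day livers, against 18.8%, and 21 in 1-week livers, against 21.8%, shares well above those of all genes. Late livers had 1 higher gene at 2 weeks, against 2.80%, 2 at 4 weeks, against 9.33%, and 6 at 3 months, against 16.7%, under the share of all genes each time.

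**Figure D1:**
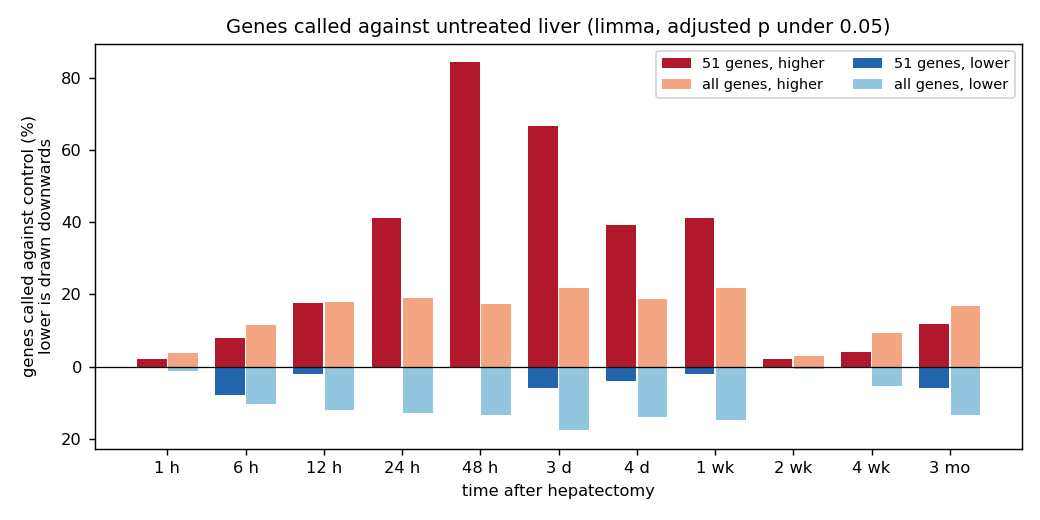
Share of the 51 genes (dark bars) and of all 18194 genes (light bars) called higher (upwards) or lower (downwards) than untreated liver at each time after hepatectomy. At 48 hours 84.3% of the 51 genes were called higher, against 17.4% of all genes.

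Few genes were lower at any time. In 6-hour livers 4 genes were lower, against 10.5% of all genes, and in 12-hour livers 1, against 12.0%. After the peak 3 were lower in 3-day livers, against 17.7%, 2 in 4-day livers, against 14.1%, 1 in 1-week livers, against 14.9%, and 3 in 3-month livers, against 13.4%. None of the 51 was lower in 1-hour (1.37% of all genes), 24-hour (12.8%), 48-hour (13.4%), 2-week (0.605%) or 4-week livers (5.39%). The moderated F test over all times called 50 of the 51 genes, against 64.6% of all genes, and left out the origin recognition gene Orc1 (adjusted p = 0.474).

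At 48 hours the 4 arrays lay above all 5 control arrays for 42 of the 51 genes, against 15.8% of all genes. The count of 43 higher genes ranged from 39 to 43 when single arrays of either group were left out. With the hybridization controls as a covariate it was 35, but the counts at 3 days, 4 days and 1 week then all came to 0. That reading averaged 10.85 in controls and 9.73, 9.86 and 9.85 at those later times, so the covariate overlaps with the groups compared. Shares over all genes are not given for that fit, so its counts are not read as a result about the 51 genes.

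**Figure D2:**
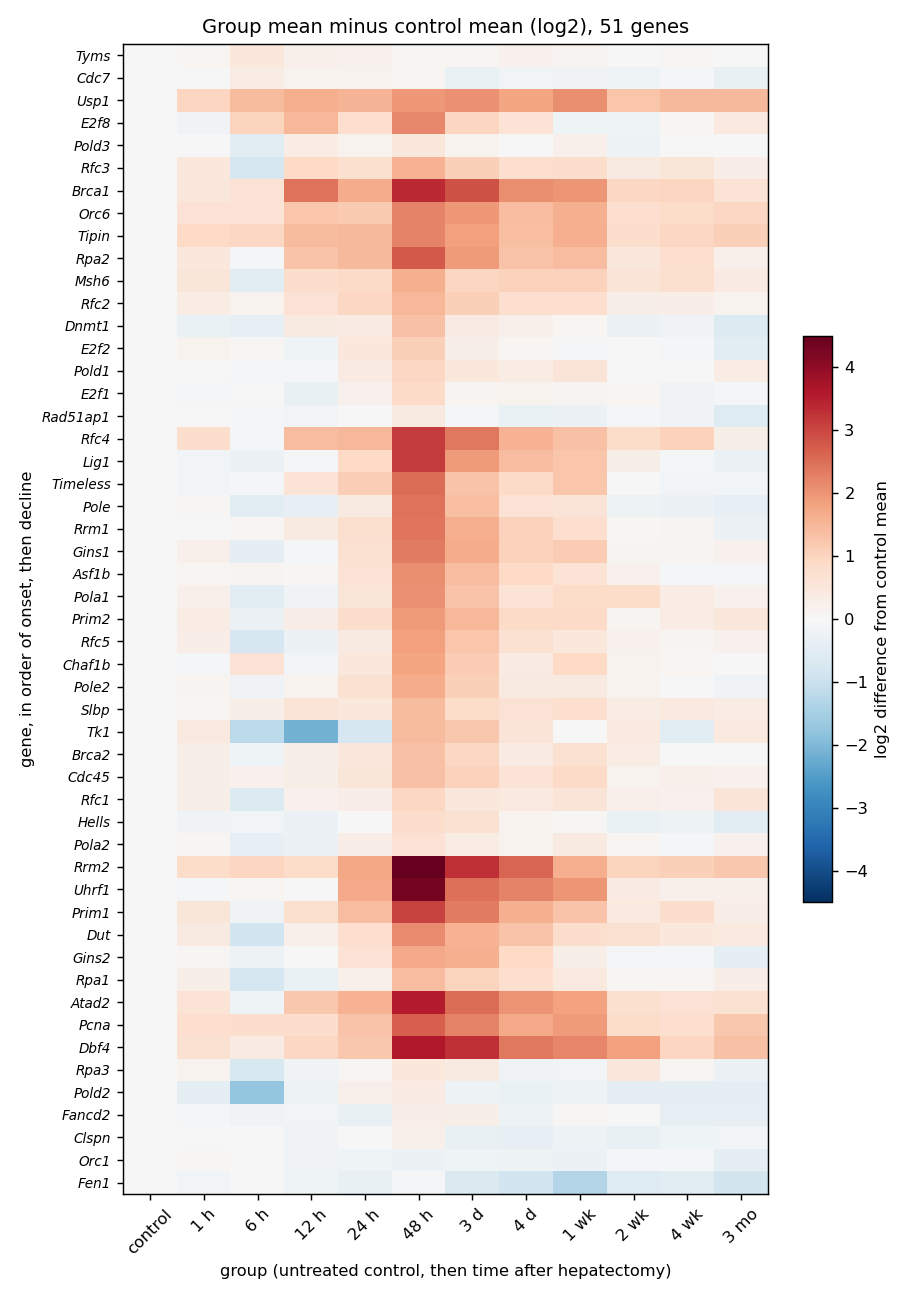
Group mean minus control mean (log2) of each of the 51 genes, from untreated controls through the 11 times, with genes ordered by onset and then decline and genes never called higher at the bottom. The 48-hour column holds the highest group mean of 45 of the 51 genes.

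The median step from 24 to 48 hours was 0.97, against 0.29 from 12 to 24 hours. From 12 to 24 hours the thymidine kinase Tk1 and the factor E2f2 were called higher, 2 genes of 51 against 5.13% of all genes. From 24 to 48 hours 34 genes were higher and none lower, against 3.57% and 1.91% of all genes. The gains of that day were 3.03 ± 0.71 for Rrm2, 2.61 ± 0.61 for the DNA methylation factor Uhrf1, 2.41 ± 0.41 for Dbf4 and 2.25 ± 0.40 for the DNA ligase Lig1 (adjusted p = 9.5e-05 to 0.0054, limma). The count of 34 was 21 without 48-hour replicate 3 and 13 in a fit of the 2 groups alone, and it was 39 with the hybridization control covariate. These contrasts do not use the control means, but the fit takes its spread from all arrays, controls included.

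Onset was set at the first time whose group mean passed the midpoint between the control mean and the highest group mean, among the 45 genes ever called higher. On this measure 3 genes rose by 6 hours, namely the thymidylate synthase gene Tyms, Cdc7 and the deubiquitinase Usp1. Another 6 passed it at 12 hours, namely Orc6, Pold3, Rfc3, Tipin, Brca1 and E2f8, and 3 at 24 hours, namely Rfc2, Rpa2 and Msh6. The other 33 passed it at 48 hours, a count that was 20 without 7 arrays that had Xist signal, a Gapdh 3′ to 5′ difference above 2 or a negative correlation with their own group. With the mark set at 2 parts in 3 of the rise, 40 genes passed it at 48 hours, 2 at 12 hours and 3 at 6 hours. Without regard to calls, the highest group mean lay at 48 hours for 45 of the 51 genes, against 7.38% of all genes. Taken as the first time called, onset was at 1 hour for 1 gene, at 6 hours for 3, at 12 hours for 7, at 24 hours for 13 and at 48 hours for 21.

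Decline, the first later time below the midpoint, came at 3 days for 7 genes, among them E2f1, E2f2, E2f8 and the maintenance methyltransferase Dnmt1. Of these 7, E2f8, Pold1 and Pold3 had a 3-day mean below the midpoint only with replicate 2 of that group. Decline came at 4 days for 21 genes, at 1 week for 6, at 2 weeks for 7 and at 4 weeks for Dbf4, and Usp1 did not reach it. Tyms and Cdc7 declined at 12 hours. With the mark at 2 parts in 3 of the rise, decline came at 3 days for 18 genes, at 4 days for 24, at 12 hours for 2 and at 2 weeks for 1, so the order of decline depends on the mark. Contrasts between neighbouring times called few of these falls. From 48 hours to 3 days 1 gene of 51 was lower (Clspn), from 3 to 4 days none, and from 4 days to 1 week none. Over all genes those limma contrasts called 0.022%, 0.0% and 0.011% lower. At an unadjusted p under 0.05, 19, 3 and 0 of the 51 genes were lower in these contrasts, and with array weights 16 genes were called lower from 3 to 4 days.

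Set against 48 hours, 21 genes were lower at 1 week, against 1.66% of all genes, 39 at 4 weeks, against 4.19%, and 38 at 3 months, against 4.36%, and none were higher. The median differences were -0.96 at 1 week, -1.41 at 4 weeks and -1.32 at 3 months. The counts at 4 weeks and 3 months ranged from 27 to 40 when single arrays were left out. The count at 1 week was 7, 8 and 4 without 48-hour replicates 1, 2 and 3, 6 without 1-week replicate 4, and 0 in a fit of the 2 groups alone.

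Among the 5 genes of nucleotide supply, 4 were higher at 48 hours. Rrm2, the S-phase subunit of ribonucleotide reductase, which makes deoxynucleotides, read 10.27, 10.12, 10.18 and 9.09 in 48-hour livers, against 4.53, 5.08, 5.07, 5.24 and 5.81 in control livers. Every 48-hour array was above every control array, by 4.77 ± 0.81 or 27.3-fold on average (adjusted p = 2.01e-05, limma). Its partner subunit Rrm1 rose by 2.42 ± 0.33 and the dUTP-removing enzyme Dut by 2.14 ± 0.35. Tk1, which salvages thymidine, was first lower, at 4.02, 3.90, 3.71 and 3.99 in 12-hour livers against 5.52, 6.00, 6.09, 5.97 and 6.66 in control livers (-2.14 ± 0.51, adjusted p = 0.001, limma). At 48 hours it was higher by 1.41 ± 0.51 (adjusted p = 0.0302, limma). Tyms, which makes thymidylate, read 2.33, 2.47, 2.26 and 2.33 in 48-hour livers, against 2.39, 2.17, 2.37, 2.14 and 2.20 in control livers. It lay under background on all 52 arrays, so its call at 6 hours (0.48 ± 0.12) carries no fold.

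Of the 7 genes of origin recognition and firing, 5 were higher at 48 hours. Dbf4 read 8.12, 8.28, 8.24 and 6.38 in 48-hour livers, against 3.55, 4.68, 4.04, 3.76 and 4.69 in control livers. The groups did not overlap, and the change was 3.61 ± 0.48 or 12.2-fold (adjusted p = 3.49e-07, limma). The GINS subunits Gins1 and Gins2 rose by 2.34 ± 0.34 and 1.72 ± 0.36, the origin recognition subunit Orc6 by 2.22 ± 0.29 and Cdc45 by 1.31 ± 0.30. Orc1, the largest subunit of the origin recognition complex, read 5.07, 5.35, 5.18 and 5.05 in 48-hour livers, within the range of 5.47, 5.76, 5.37, 5.01 and 5.49 in control livers. Cdc7, the kinase itself, read 5.00, 4.96, 4.60 and 4.73 in 6-hour livers and 4.56, 4.47, 4.47 and 4.67 in 48-hour livers, against 4.33, 4.57, 4.59, 4.51 and 4.36 in control livers. It was called higher at 6 hours (0.35 ± 0.12, adjusted p = 0.0252) and lower at 3 days (-0.29 ± 0.12, adjusted p = 0.0431) and 3 months (-0.35 ± 0.13, adjusted p = 0.0341, all limma).

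All 9 primase and polymerase genes but 1 were higher at 48 hours. Prim1, the catalytic subunit of primase, read 7.82, 7.60, 7.51 and 7.0 in 48-hour livers, against 4.40, 4.24, 4.37, 4.86 and 4.27 in control livers. The change was 3.05 ± 0.48 or 8.28-fold (adjusted p = 4.85e-06, limma). Pole, the catalytic subunit of the leading-strand polymerase epsilon, rose by 2.44 ± 0.43 or at least 5.04-fold, Pola1 of the primase-bound polymerase alpha by 2.05 ± 0.38, Prim2 by 1.92 ± 0.34 and Pole2 by 1.67 ± 0.27. Pola2, the partner of Pola1, rose by 0.65 ± 0.22. Of the lagging-strand polymerase delta, the catalytic subunit Pold1 rose by 0.94 ± 0.20 and Pold3 by 0.52 ± 0.20. Its subunit Pold2 read 6.50, 6.47, 7.43 and 7.26 in 48-hour livers, against 6.43, 6.43, 6.60, 6.67 and 6.62 in control livers (0.37 ± 0.29, adjusted p = 0.34, limma). Pold2 stood out earlier, at 4.91, 4.70, 4.73 and 4.85 in 6-hour livers, all below every control array (-1.75 ± 0.29, adjusted p = 8.0e-06, limma). The clamp loader subunit Rfc1 (-0.60 ± 0.18) and the single-strand binding subunits Rpa1 (-0.77 ± 0.25) and Rpa3 (-0.70 ± 0.25) were the other genes lower at 6 hours. That count of 4 was 2 without 6-hour replicate 2 and 2 without replicate 4.

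Of the 11 genes of the clamp, its loader, the single-strand binding protein RPA and lagging-strand processing, 9 were higher at 48 hours. Pcna, the clamp itself, read 10.24, 10.50, 10.39 and 10.23 in 48-hour livers, against 6.98, 7.81, 7.67, 7.85 and 7.94 in control livers. The change was 2.69 ± 0.36 or 6.47-fold (adjusted p = 4.25e-07, limma). The loader subunit Rfc4 read 7.45, 7.45, 7.15 and 6.53 in 48-hour livers, against 2.79, 4.29, 4.08, 4.80 and 4.05 in control livers, and the change was at least 8.57-fold (3.14 ± 0.47, adjusted p = 2.91e-06, limma). In both genes every 48-hour array exceeded every control array. Lig1, which joins lagging-strand fragments, rose by 3.14 ± 0.46 or 8.82-fold, and the middle RPA subunit Rpa2 by 2.77 ± 0.36. The loader subunits Rfc5, Rfc3, Rfc2 and Rfc1 gained 1.86, 1.55, 1.49 and 0.93. Rpa3 did not pass the test (0.49 ± 0.25, adjusted p = 0.126, limma).

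**Figure D3:**
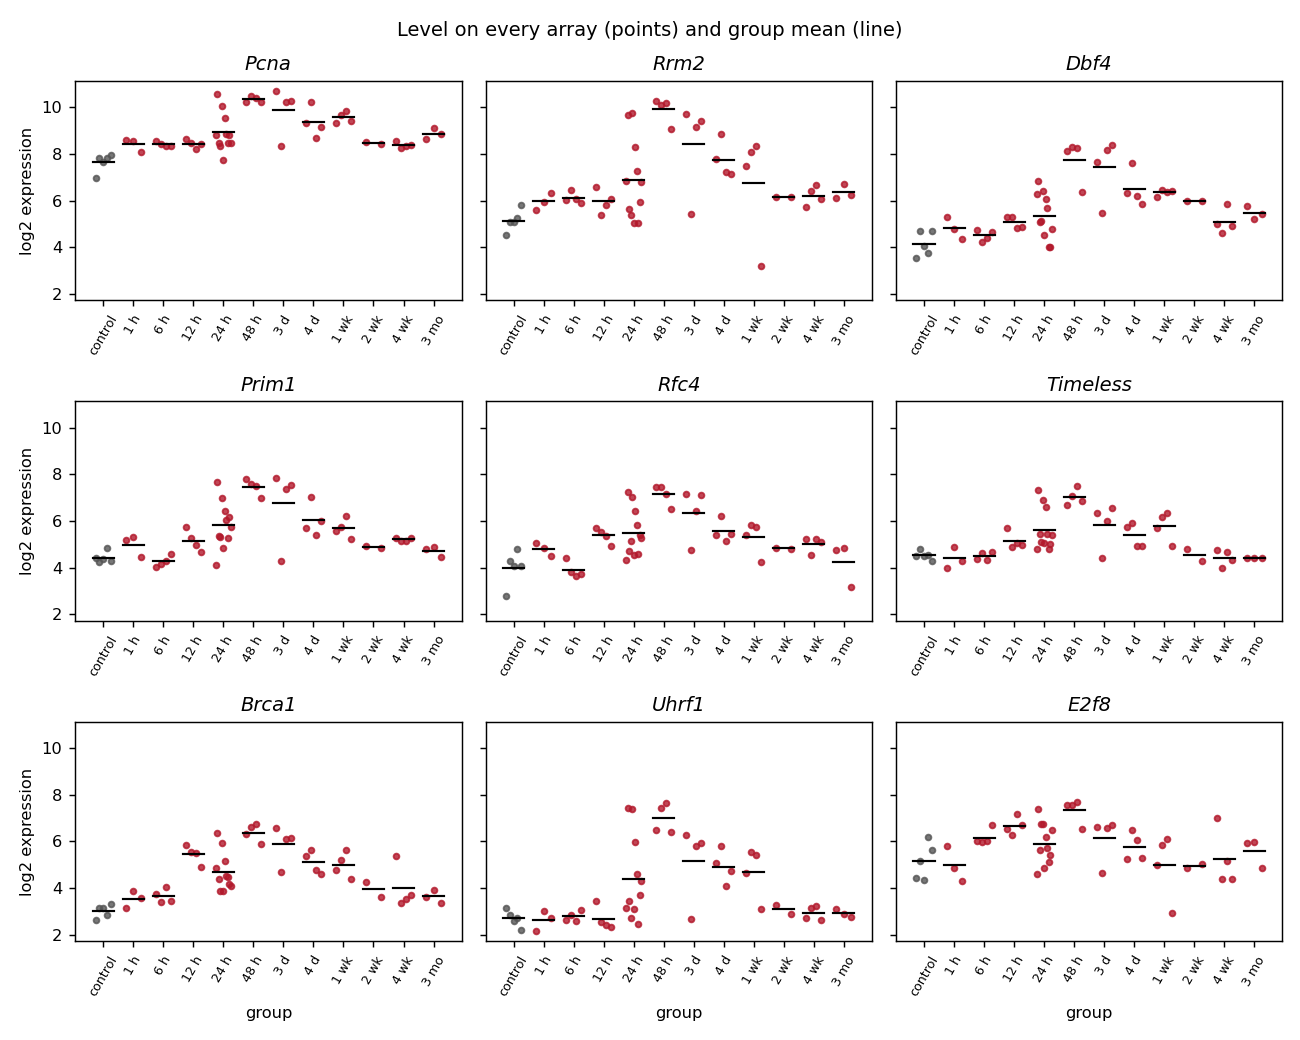
Log2 level on every array (points, grey for untreated controls and red for operated mice) and group mean (line) of Pcna and of the gene with the highest fitted 48-hour difference in each functional group (Rfc4 and Lig1 both at 3.14). The 24-hour points spread over most of the range between the control and 48-hour points. For Rrm2, Prim1, Rfc4, Timeless, Uhrf1 and E2f8, 1 of the 4 3-day points lies within the range of the control points.

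On the probe sets with the highest mean, the 3 fork protection genes split. Timeless, which couples helicase and polymerase, read 6.69, 7.07, 7.51 and 6.86 in 48-hour livers, against 4.51, 4.79, 4.52, 4.56 and 4.28 in control livers (2.50 ± 0.39, adjusted p = 4.7e-06, limma). Its partner Tipin was higher at 9 of the 11 times, from 6 hours (0.95 ± 0.27) through 48 hours (2.22 ± 0.27) to 3 months (1.08 ± 0.30), missing at 1 hour and 2 weeks. Clspn, the adaptor that passes the fork stress signal to the kinase Chek1, read 4.86, 4.69, 5.04 and 4.61 in 48-hour livers, against 4.54, 4.47, 4.54, 4.59 and 4.65 in control livers. Those groups overlap. This Clspn set was then called lower at 3 days, at 4.26, 4.17, 4.18 and 4.29 (-0.33 ± 0.11, adjusted p = 0.0113, limma). It was also called lower at 4 days (-0.35 ± 0.11, adjusted p = 0.00894, limma). The second Clspn set rose by 1.97 ± 0.43 at 48 hours (adjusted p = 0.00057 over all probe sets, limma). That set averaged 3.56 in control livers, under background, 5.54 in 48-hour livers and 4.27 in 3-day livers.

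Of the 6 repair genes, 5 were higher at 48 hours. Brca1, a mediator of recombination repair, read 6.31, 6.61, 6.73 and 5.88 in 48-hour livers, against 2.64, 3.16, 3.13, 2.83 and 3.31 in control livers. The change was 3.37 ± 0.39 or at least 5.07-fold (adjusted p = 6.37e-08, limma). Unlike most of the genes it was already 2.43 ± 0.39 higher at 12 hours, at 5.84, 5.54, 5.53 and 4.89, and 1.69 ± 0.32 higher at 24 hours. The 24-hour minus 12-hour difference of -0.75 ± 0.34 did not pass the test (adjusted p = 0.17, limma). Usp1, which removes ubiquitin from Fancd2 and Pcna, was higher at all 11 times, by 0.96 ± 0.26 at 1 hour and 2.08 ± 0.23 at 1 week. It read 7.97, 7.95 and 7.57 in 3-month livers, above the 5.38, 7.10, 6.12, 6.85 and 6.34 of control livers. With the hybridization control covariate, Usp1 was not called higher at 1 hour or at any time from 3 days on. Its calls at 1 hour and 2 weeks were also lost in fits that left out a single array. Msh6 of mismatch repair rose by 1.59 ± 0.34 and Brca2, which loads the recombinase, by 1.31 ± 0.31 at 48 hours. Fancd2 of the crosslink repair pathway read 4.63, 4.84, 4.90 and 4.44 in 48-hour livers, against 4.51, 4.39, 4.34, 4.25 and 4.48 in control livers (0.31 ± 0.20, adjusted p = 0.249, limma).

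All 7 chromatin genes were higher at 48 hours. Uhrf1, which recruits Dnmt1 to freshly copied DNA, read 6.51, 7.46, 7.66 and 6.40 in 48-hour livers, against 3.14, 2.83, 2.58, 2.73 and 2.22 in control livers. The change was 4.31 ± 0.71 or at least 7.79-fold (adjusted p = 1.13e-05, limma), and all control arrays lay under background. The bromodomain ATPase Atad2 rose by 3.53 ± 0.51 or at least 10.6-fold. The histone chaperones Asf1b and Chaf1b rose by 2.09 ± 0.39 and 1.76 ± 0.38, the histone mRNA-binding protein Slbp by 1.42 ± 0.27 and Dnmt1 by 1.32 ± 0.25. The remodeller Hells read 5.22, 5.19, 5.09 and 4.98 in 48-hour livers, against 4.63, 3.93, 4.32, 4.12 and 4.58 in control livers (0.80 ± 0.27, adjusted p = 0.023, limma).

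The 3 E2F genes were higher at 48 hours and had 3-day means below their midpoints. For E2f8 that held only with 3-day replicate 2, which read 4.66 against 6.58 to 6.69 on the others. E2f8, a repressor of the family that is itself a target of the activators, read 7.58, 7.55, 7.68 and 6.52 in 48-hour livers, against 4.44, 5.17, 4.35, 6.20 and 5.64 in control livers (2.17 ± 0.54, adjusted p = 0.0023, limma). It was also higher at 12 hours, at 6.52, 6.26, 7.16 and 6.71 (1.50 ± 0.54, adjusted p = 0.0314, limma). The activator E2f1 read 6.21, 6.07, 6.27 and 5.61 in 48-hour livers, against 5.23, 5.19, 5.09, 5.25 and 5.20 in control livers (0.85 ± 0.21, adjusted p = 0.00185, limma). E2f2, another activator, rose by 1.06 ± 0.25.

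At 24 hours the arrays did not form 1 level. Of the 51 genes, 21 were called higher, but the 24-hour arrays were all above the controls for 6 genes, against 6.55% of all genes. Replicates 2, 5, 7 and 8 had 46, 48, 45 and 37 genes above the highest control array, and the other 7 had 9 to 34. Such counts also ran from 14 to 27 at 1 hour and from 13 to 25 at 3 months, where 1 and 6 genes were called higher. The share over all genes is not given for single arrays, so counts in that range do not by themselves mark a rise of these genes. The mean of the 51 genes was 6.91, 6.61, 6.22 and 5.83 on those 4 arrays and 5.14 to 5.55 on the others, against 4.95 to 5.18 on control arrays. Rrm2 ranged from 5.04 through a median of 6.80 to 9.76 and Uhrf1 from 2.46 through 3.72 to 7.44, so that each ran from within the control range to within the 48-hour range. Pcna ranged from 7.76 through 8.80 to 10.58. The 13 mitosis genes, whose mean was 6.30, 5.75, 4.86 and 4.27 on replicates 2, 5, 7 and 8, lay between 3.21 and 3.86 on the other 7 arrays, against 3.37 to 3.65 on control arrays. The count of 21 was 27 without the 3 arrays with Xist signal, 15 without replicates 2 and 5, 14 without control replicate 1 and 4 with the hybridization control covariate.

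**Figure D4:**
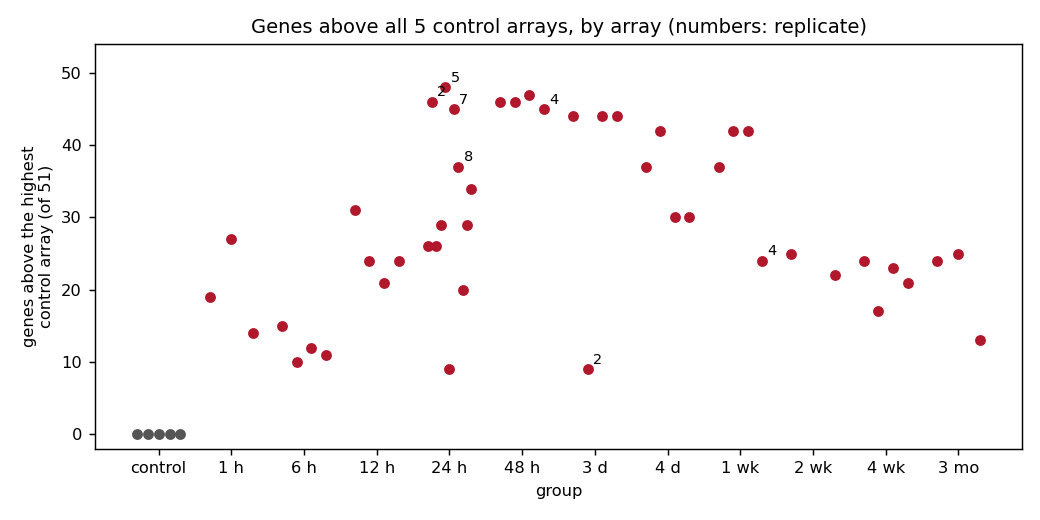
Number of the 51 genes whose level on an array is above the highest of the 5 control arrays, for each array by group (numbers name replicates, and controls are at 0 by construction). The 24-hour arrays run from 9 to 48 genes, and 3-day replicate 2 has 9 where the other 3-day arrays have 44. The 1-hour arrays run from 14 to 27, and the share over all genes is not given for single arrays.

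At 3 days 34 genes were still higher than in controls, and 9 of the 51 had every 3-day array above every control array, against 16.9% of all genes. Replicate 2 of that group stood apart, with 9 of the 51 genes above the highest control array. It read 5.41 for Rrm2, 4.31 for Prim1 and 2.69 for Uhrf1, against 9.16 to 9.73, 7.37 to 7.86 and 5.79 to 6.28 on the other 3-day arrays. Pcna (8.36), Dbf4 (5.48) and Brca1 (4.69) were among the 9 above all controls. The mean of its mitosis genes was 4.89, against 3.37 to 3.65 on control arrays. Without replicate 2, 38 genes were higher at 3 days and 1 was lower in place of 3. The 20 genes higher at 4 days were 10 without 4-day replicate 2, which had the highest mean of the 51 genes in its group (6.37, against 5.60 to 5.80 on the others). The 21 higher at 1 week were 13 without 1-week replicate 3, and 1-week replicate 4 read 3.21 for Rrm2, against 7.47 to 8.33 on the other 1-week arrays.

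Pcna shows the whole course. It read 6.98, 7.81, 7.67, 7.85 and 7.94 in control livers, 8.60, 8.55 and 8.09 at 1 hour, 8.57, 8.45, 8.33 and 8.36 at 6 hours and 8.63, 8.49, 8.22 and 8.44 at 12 hours. After the peak it read 10.70, 8.36, 10.25 and 10.26 at 3 days, 9.33, 10.22, 8.70 and 9.17 at 4 days and 9.35, 9.69, 9.84 and 9.40 at 1 week. It then read 8.50 and 8.43 at 2 weeks, 8.54, 8.28, 8.36 and 8.39 at 4 weeks and 8.65, 9.11 and 8.84 at 3 months. All 3 arrays at 3 months lay above all controls, and the difference of 1.22 ± 0.39 passed the test (adjusted p = 0.0156, limma).

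Few genes were called at the late times. Usp1 was the gene called higher at 2 weeks, where 2 arrays were compared, and Usp1 and Tipin those at 4 weeks, where 9 of the 51 genes lay above all controls on all 4 arrays, against 8.31% of all genes. At 3 months the 6 higher genes were Pcna, Orc6, Dbf4, Rfc1, Tipin and Usp1, and the 3 lower ones Fen1, Cdc7 and Rad51ap1. The 6 became 2 without 3-month replicate 1, 3 without 3-month replicate 2, 3 without control replicate 1 and 0 with the hybridization control covariate. At 4 weeks the count of 2 was 1 without 4-week replicate 1 and 1 without control replicate 1. At 2 weeks it was 0 without either replicate.

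Different probe sets of a gene did not always give the same answer. The 51 genes have 111 single-gene probe sets, and 39 genes have more than 1. With each probe set tested on its own over 34958 probe sets, 77 were higher at 48 hours and 1 was lower, 1 set of Prim2 (-0.56 ± 0.18). At least 1 probe set was higher for 48 of the 51 genes. The exceptions were Orc1, Pold2 and Rpa3. Of the 8 genes not called on the brightest set, Tyms, Cdc7, Fen1, Clspn and Fancd2 were called on another. For Tyms and Cdc7 those sets averaged under background in both groups, and 46 genes had a higher set with a 48-hour mean over background. These comparisons of probe sets were added after the values were seen.

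The nuclease Fen1, which trims lagging-strand fragments, was the clearest case. Its brightest set read 8.95, 9.13, 9.17 and 8.42 in 48-hour livers, against 9.22, 9.09, 8.63, 9.04 and 8.79 in control livers, and did not differ beyond the spread (-0.04 ± 0.23, adjusted p = 0.916, limma). The same set was lower at 3 days, 4 days, 1 week and 3 months, by 1.31 ± 0.23 at 1 week, where it read 7.79, 7.62, 7.71 and 7.46. Its other set averaged 6.87 ± 0.40 in 48-hour livers (SD, n = 4) and 3.70 ± 0.52 in control livers (SD, n = 5), a change of 3.16 ± 0.49 (adjusted p = 6.18e-06 over all probe sets, limma). The direction at 3 days was thus opposite on the sets, at -0.67 ± 0.23 and 1.90 ± 0.49. The brightest sets of Fen1, Rrm2 and Pold1 are of the x_at kind, whose probes can also match other transcripts.

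Hells changed by 0.80 on its brightest set and by 4.57 ± 0.78 on another, which averaged 7.11 ± 0.72 in 48-hour livers (SD, n = 4) and 2.53 ± 0.21 in control livers (SD, n = 5). Rad51ap1, which stimulates recombination, changed by 0.41 ± 0.16 on its brightest set and by 2.94, 3.33 and 1.40 on its other sets. A second set of Clspn rose by 1.97 ± 0.43. For Uhrf1 the other set gave 1.85 ± 0.40. The 3 other sets of Brca1 gave 0.92 ± 0.27, which was called, and 0.51 ± 0.22 and -0.22 ± 0.17, which were not (adjusted p = 0.069 and 0.338, limma).

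**Figure D5:**
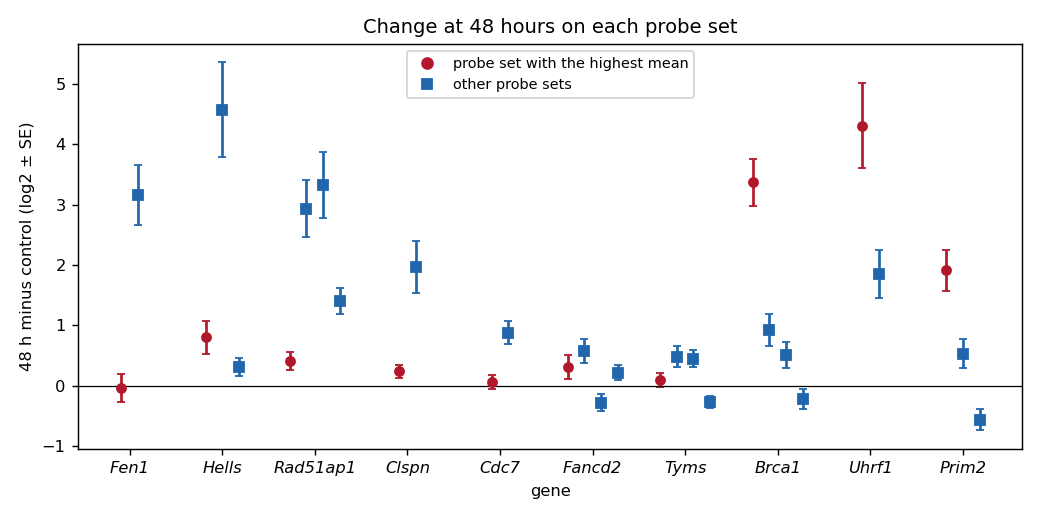
Change at 48 hours against controls (log2 ± SE) on the probe set with the highest mean (circles) and on the other probe sets (squares) of 10 genes. For Fen1, Hells, Rad51ap1 and Clspn another set changed more than the brightest one.

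Genes that act beside the 51 were counted from lists chosen by function. The list of 16 licensing genes covers helicase loading before S phase, and also holds Gins3, Gins4, Mcm10 and Gmnn, which do not load it. At 48 hours 12 of the 16 were higher and none lower, with a median change of 1.81 (1.57 with means under background set to that level). Gins3, Gins4 and Gmnn were among the 12, and Mcm6 and Mcm5 led with 5.01 ± 0.74 and 4.93 ± 0.75. Of 13 measured mitosis genes all 13 were higher, and of them 1 was already higher at 24 hours. Their median change was 4.57, but 9 of the 13 averaged under background in controls, and with those at the background level it was 3.70. The licensing list had 8 higher genes and 1 lower at 24 hours. In contrast, 7 of 18 measured nucleotide synthesis genes were higher and 1 was lower, with a median of 0.33, including Dtymk (1.13 ± 0.29) and Dck (1.46 ± 0.38), the kinases of thymidylate and deoxycytidine. Of 20 other repair and checkpoint genes 11 were higher, with Chek1 (3.22 ± 0.53) and the uracil glycosylase Ung (2.04 ± 0.34). Of 10 measured histone chaperone and chromatin genes 6 were higher, among them Ezh2 (2.56 ± 0.36) and Hat1 (2.52 ± 0.36). Of 13 E2F partners and pocket proteins 7 were higher, led by the pocket protein Rbl1 (3.38 ± 0.50), and 2 were lower (E2f5, -0.58 ± 0.19, and Mybl2, -0.27 ± 0.11). All values are 48-hour minus control, and the genes called higher over the whole array made 17.4%.

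Markers of other cells also differed between the groups. Of 6 Kupffer cell markers 6 were higher at 24 hours (18.9% of all genes) and 4 at 48 hours (17.4%). All 6 were higher at 3 days (21.7%), 4 days (18.8%) and 1 week (21.8%). Counts at the early times were 4 at 1 hour (3.67%), 1 at 6 hours (11.4%) and 2 at 12 hours (17.9%). Late counts were 6 at 2 weeks (2.8%), 5 at 4 weeks (9.33%) and 6 at 3 months (16.7%). The summed level of these markers (log2) ran from 8.89 to 10.59 in 24-hour livers and from 8.34 to 9.89 in 48-hour livers, against 7.04 to 8.08 in control livers. It ran from 9.15 to 10.19 in 3-day livers, from 9.12 to 10.59 in 4-day livers and from 9.78 to 11.45 in 1-week livers. At 3 months it ran from 9.71 to 10.84. Marco and Timd4 averaged under background in the controls. None of 5 hepatocyte, 5 sinusoidal endothelium and 4 cholangiocyte markers was called higher at 48 hours. Of 5 stellate cell markers Des was lower, of 5 measured T and B cell markers Cd3e, of 4 measured monocyte and macrophage markers Ccr2, and of 4 measured neutrophil markers Elane. At 3 days 3 of 5 endothelial markers (Stab2, Clec4g and Lyve1), the stellate genes Col1a1 and Col3a1, Lyz2, S100a8, S100a9, Krt7 and the hepatocyte gene Cps1 were higher. In the same livers the neutrophil marker Elane, the cholangiocyte marker Epcam and the T cell marker Cd8a were lower. At 4 days 2 endothelial markers, the same collagen genes, Krt7 and Cps1 were higher, and at 1 week Pecam1, Lyve1, Col3a1, Itgam and Tat. Lyz2, S100a8 and S100a9 were higher at both times. Elane, Epcam and Cd3e were lower at both times, Ccr2 at 4 days and Des at 1 week. The part of other cell types in the changes of the 51 genes was not tested.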

How the data were processed

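Whole-liver RNA of 52 samples was measured on Affymetrix mouse arrays. The deposited values are log2 levels per probe set, and RMA and oligo 1.52.0 are named per the submitters' processing notes, with further settings not given in the sources used here. Array number limits the precision. Of 45101 probe sets, 34958 name 1 gene in the platform annotation, 932 several and 9211 none listed. Per gene the probe set with the highest mean was kept, giving 18194 genes. From these, group means were fitted to all arrays in limma 3.58.1 (R 4.3.3) with empirical Bayes and no covariate, two-sided, with Benjamini-Hochberg adjustment. The fit was also run on simulated data, with independent noise of equal spread in all groups and changes at 48 hours only. Those data hold no outlying arrays and no technical differences between groups, so that run does not bear on the calls. The genes and lists were chosen with earlier results of these data known. Array values are given for Pcna, the highest and lowest 48-hour change in each functional group and genes lower at 2 or more times, and other genes with their change. The array values of Tk1 and Usp1 were added after they were seen. Alternatives covered the fit, probe set, filter, normalization, thresholds, covariates and arrays left out. The contrasts with 48 hours at 1 week, 4 weeks and 3 months, the tests of all probe sets, the medians with a background floor and the peak times over all genes were added after the data were seen.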

Additional observations from a re-analysis of the deposited data

Results flagged for a closer look

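Of 144 groups of 4 to 10 arrays tested among the genes with array values, 14 held 1 array far from the others, and chance alone gives about 1 in 20. At 3 days replicate 2 read 5.41 for Rrm2 (others 9.16 to 9.73), 4.31 for Prim1 (others 7.37 to 7.86), 2.69 for Uhrf1 (others 5.79 to 6.28) and 4.66 for E2f8 (others 6.58 to 6.69). At 48 hours replicate 4 read 9.09 for Rrm2 (others 10.12 to 10.27), 6.38 for Dbf4 (others 8.12 to 8.28) and 6.52 for E2f8 (others 7.55 to 7.68). At 1 week replicate 4 read 3.21 for Rrm2 (others 7.47 to 8.33). Among controls, replicate 1 read 6.98 for Pcna (others 7.67 to 7.94) and replicate 4 read 4.86 for Prim1 (others 4.24 to 4.40). At 4 weeks replicate 2 read 4.54 for Rfc4 (others 5.12 to 5.22) and replicate 1 read 5.37 for Brca1 (others 3.38 to 3.70). At 4 days replicate 2 read 5.14 for Hells (others 4.19 to 4.32), and at 6 hours replicate 4 read 6.71 for E2f8 (others 5.96 to 6.00).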

How the results depend on the processing

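The 43 genes higher at 48 hours stayed within 35 to 46 under all alternatives run. Other counts moved. In fits of the 2 groups alone, 10 genes were higher in 6-hour livers, 19 in 12-hour and 13 in 24-hour livers, 3 at 2 weeks, 8 at 4 weeks, 0 from 12 to 24 hours and 13 from 24 to 48 hours, and 0 were lower from 48 hours to 3 days and 0 from 48 hours to 1 week. Array weights gave 2 higher in 1-hour livers, 8 in 6-hour, 15 in 12-hour and 34 in 24-hour livers, 34 at 1 week, 2 at 2 weeks and 18 from 12 to 24 hours, with 5 lower from 48 hours to 3 days and 16 from 3 to 4 days. The hybridization control covariate gave 0 higher in 1-hour livers, 2 in 6-hour, 3 in 12-hour and 4 in 24-hour livers, 0 at each time from 3 days on and 4 from 12 to 24 hours, with 3 lower from 48 hours to 3 days and 36 to 1 week. The Gapdh covariate gave 0 at 1 hour, 5 at 12 hours, 9 at 24 hours, 11 at 1 week and 1 at 4 weeks. An adjusted p under 0.01 gave 0 in 1-hour livers, 11 in 24-hour, 11 in 4-day and 11 in 1-week livers, 0 at 2 weeks, 1 at 4 weeks, 2 at 3 months and 0 from 12 to 24 hours, with 0 lower from 48 hours to 3 days and 6 to 1 week. A 2-fold minimum gave 0 at 1 hour, 1 at 6 hours, 13 at 24 hours, 1 at 4 weeks and 1 from 12 to 24 hours, with 0 lower from 48 hours to 3 days. The filter on low values gave 2 at 1 hour, 2 at 2 weeks, 5 from 12 to 24 hours and 0 lower from 48 hours to 3 days, and quantile normalization 2 at 1 hour, 2 at 2 weeks, 4 at 4 weeks and 4 from 12 to 24 hours. Averaging all probe sets per gene gave 2 at 6 hours and 0 lower from 48 hours to 3 days, and turned Fen1 at 48 hours to 1.56. Without the 3 Xist arrays there were 2 at 2 weeks and 9 from 12 to 24 hours. Without 7 doubted arrays there were 0 at 1 hour, 1 at 4 weeks, 3 at 3 months and 13 from 12 to 24 hours, 10 lower from 48 hours to 1 week and 20 genes with onset at 48 hours, where the first time called gave 21. The causes were not tested.

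Leaving out single arrays gave 0 to 2 higher in 1-hour livers, 3 to 4 in 6-hour, 6 to 10 in 12-hour, 14 to 24 in 24-hour and 39 to 43 in 48-hour livers. Later it gave 27 to 38 in 3-day, 10 to 23 in 4-day, 13 to 26 in 1-week, 0 to 1 in 2-week, 1 to 3 in 4-week and 2 to 6 in 3-month livers, 0 to 6 from 12 to 24 hours and 21 to 39 from 24 to 48 hours. It gave 0 to 1 lower from 48 hours to 3 days, 4 to 24 to 1 week, 28 to 39 to 4 weeks and 27 to 40 to 3 months, 49 to 50 genes changed at any time and 29 to 35 with onset at 48 hours.

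Deviations of same-numbered arrays of different groups had a median correlation of -0.00295 (224 pairs, r = -0.548 to 0.561, 48 over 0.1). The labels do not say whether the numbers pair samples, and a median over all pairs cannot decide it for single pairs. With the replicate block the counts were 30 in 24-hour, 43 in 48-hour and 36 in 3-day livers, 4 at 4 weeks, 4 from 12 to 24 hours and 20 from 24 to 48 hours.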
